A study of Penicillium oxalicum with 6 samples.

Results

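The genes described are 4 gene IDs of the filamentous fungus Penicillium oxalicum, POX00063, POX06601, POX06783 and POX08484, which are listed as xylanase genes in published work on this fungus. They were taken by exact ID from the deposited tables, which held all 4 of them among 9834 gene IDs. No annotation that pairs these IDs with a product was at hand, so the word xylanase rests on that published listing and was not checked against a sequence. RNA sequencing compared mycelium of strain MuPOX09752, in which the transcription factor gene POX09752 was deleted according to the series title, with mycelium of strain Ku70, a mutant of the gene for Ku70, a protein of non-homologous end joining. Each strain had 3 libraries, all labelled as about 1 g of mycelium kept for 24 h in liquid medium with 2% Avicel, a microcrystalline cellulose. The labels do not say whether MuPOX09752 also carries the Ku70 mutation, although their growth text names the Ku70 mutant for all samples. Nor do they say whether each strain is 1 clone, or whether the 3 libraries of a strain came from separate cultures. A p-value here therefore reflects the variation among these libraries and nothing wider. The series was made to learn what POX09752 does to the transcript levels of genes for cellulases and xylanases.

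Xylanases cut the backbone of xylan, the main hemicellulose of many plant cell walls, into shorter chains that other enzymes break down to xylose. Filamentous fungi often carry several xylanase genes and secrete the enzymes together with cellulases. In fungi such as Aspergillus and Trichoderma, zinc-cluster transcription factors of the XlnR/Xyr1 type switch these genes on and the carbon catabolite repressor CreA/Cre1 holds them down on easily used sugars.

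The libraries held 13099454 to 14115694 expected counts. POX09752 itself had 0 counts in each MuPOX09752 library, against 1568, 1375 and 1663 counts in the Ku70 libraries, which is at least 1479-fold lower against a floor of 3 counts over the MuPOX09752 libraries together (edgeR quasi-likelihood test, adjusted p = 4.74e-07). The correlation between libraries across genes (Pearson's r on the log2(FPKM + 1) scale, given as a description) was 0.974 to 0.991 within MuPOX09752, 0.994 to 0.995 within Ku70 and 0.828 to 0.851 between strains. FPKM is the count scaled to gene length and library total. The difference between the strains was wide: of 8807 genes whose mean over the 6 libraries reached 1 FPKM, 60.1% were called changed (edgeR, Benjamini-Hochberg adjusted p under 0.05), 29.8% as higher in MuPOX09752 and 30.2% as lower.

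Of the 4 xylanase gene IDs, 2 were expressed at intermediate levels in Ku70 and moved in opposite directions in MuPOX09752, and 2 were below 1 FPKM in every library. POX06783 fell 6.07-fold in MuPOX09752 and POX08484 rose 1.31-fold. These 2 were the members that passed the level filter, and both were called. Since 60.1% of all tested genes were called, that count does not set the xylanase gene IDs apart from other genes. In bulk mycelium, fewer cells that express a gene and less of its RNA per cell cannot be told apart.

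POX06783 carried the large response. Its expected counts were 57, 54 and 73 in the MuPOX09752 libraries, against 389, 391 and 352 in the Ku70 libraries. As a level, that was 4.91, 4.74 and 6.21 FPKM in MuPOX09752, against 31.77, 33.45 and 29.15 FPKM in Ku70. Every MuPOX09752 library lay far below every Ku70 library, and the highest MuPOX09752 value, in replicate 3, was still under the lowest Ku70 value. Groups without overlap were common, as 67.7% of all tested genes had them. The means were 5.29 ± 0.80 FPKM in MuPOX09752 and 31.5 ± 2.17 FPKM in Ku70 (SD, n = 3 each). The log2 fold change was -2.60 ± 0.14 (SE; 95% interval -2.92 to -2.28; edgeR, adjusted p = 2.5e-06). Permuting the strain labels over the 6 libraries, on the log2(FPKM + 1) scale and two-sided, gave an exact p of 0.1, which is the lowest value possible with 3 libraries in each group. A fall of this size was uncommon among the tested genes: 1.81% of them (159 of 8807, POX06783 included) were called with a log2 fold change as low or lower. The gene was still detected in every MuPOX09752 library. The 184 counts over the MuPOX09752 libraries, against 1132 over the Ku70 libraries, gave a ratio scaled to library totals of 0.169 (95% exact binomial interval 0.144 to 0.197, counting error only).

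POX08484 had the smaller change, in the other direction. Its expected counts were 461, 440 and 386 in the MuPOX09752 libraries, against 345, 333 and 317 in the Ku70 libraries. As a level, that was 36.91, 35.93 and 30.55 FPKM in MuPOX09752, against 26.2, 26.49 and 24.41 FPKM in Ku70. The groups did not overlap, as was true of the FPKM values of 67.7% of all tested genes, and the gap between the lowest MuPOX09752 library, replicate 3, and the highest Ku70 library was narrow. The means were 34.5 ± 3.42 FPKM in MuPOX09752 and 25.7 ± 1.13 FPKM in Ku70 (SD, n = 3 each). The log2 fold change was 0.39 ± 0.10 (SE; 95% interval 0.16 to 0.63; edgeR quasi-likelihood test, adjusted p = 0.011), and the exact permutation test gave p = 0.1. Rises of this size or larger were common, with 25.5% of tested genes called at or above this log2 fold change. With 1 library left out at a time the adjusted p ran from 0.000662 without MuPOX09752 replicate 3 to 0.0489 without Ku70 replicate 3 (edgeR), so the call stood close to the threshold.

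**Figure D1:**
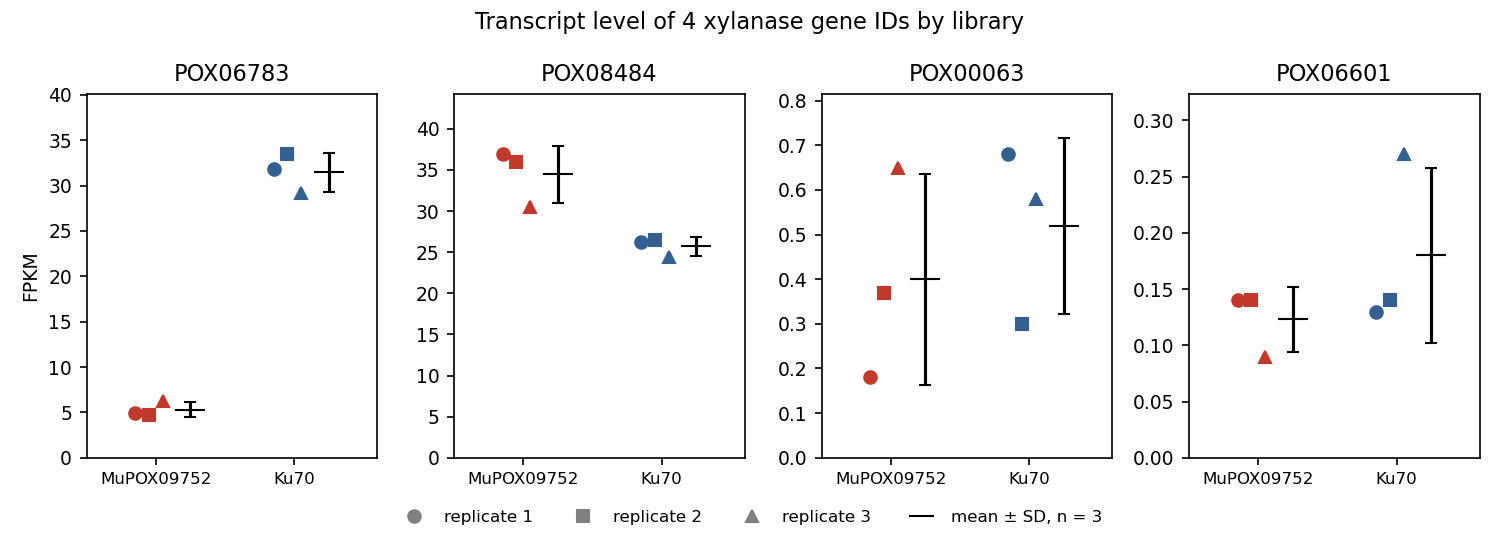
FPKM of each xylanase gene ID in each library (points, marker by replicate) with the mean and SD of 3 libraries beside them; each panel has its own axis from 0, with MuPOX09752 left of Ku70. POX06783 lay between 4.74 and 6.21 FPKM in MuPOX09752 and between 29.15 and 33.45 FPKM in Ku70, POX08484 was modestly higher in MuPOX09752, and the groups of POX00063 and POX06601 overlapped below 1 FPKM.

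The other members, POX00063 and POX06601, had a mean under 1 FPKM over the 6 libraries and did not enter the fit above. POX00063 had 3, 6 and 11 counts in the MuPOX09752 libraries and 12, 5 and 10 counts in the Ku70 libraries. Its level was 0.18, 0.37 and 0.65 FPKM in MuPOX09752 and 0.68, 0.3 and 0.58 FPKM in Ku70, so the groups overlapped. POX06601 had 3, 3 and 2 counts in the MuPOX09752 libraries and 3, 3 and 6 counts in the Ku70 libraries. Its level was 0.14, 0.14 and 0.09 FPKM in MuPOX09752 and 0.13, 0.14 and 0.27 FPKM in Ku70, and these groups overlapped too. Both genes had counts in every library.

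In a fit without the level filter, where 55.8% of 9739 genes were called, POX00063 had a log2 fold change of -0.41 (95% interval -1.60 to 0.77; edgeR, adjusted p = 0.52). That interval spans levels in MuPOX09752 from 0.33 to 1.71 times those in Ku70. POX06601 had a log2 fold change of -0.55 (95% interval -1.78 to 0.68; edgeR, adjusted p = 0.455), which spans 0.291 to 1.61 times the Ku70 level. Neither was called by edgeR or DESeq2, while limma on quantile-normalised log2(FPKM + 1), chosen after seeing the data, called POX00063 lower (log2 fold change -0.46, adjusted p = 0.0497) and gave an adjusted p of 0.0515 for POX06601. The summed counts were 20 in MuPOX09752 and 27 in Ku70 for POX00063, and 8 in MuPOX09752 and 12 in Ku70 for POX06601. Falls as deep as that of POX06783 lie outside both intervals, while changes of the size of that of POX08484 lie inside them.

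**Figure D2:**
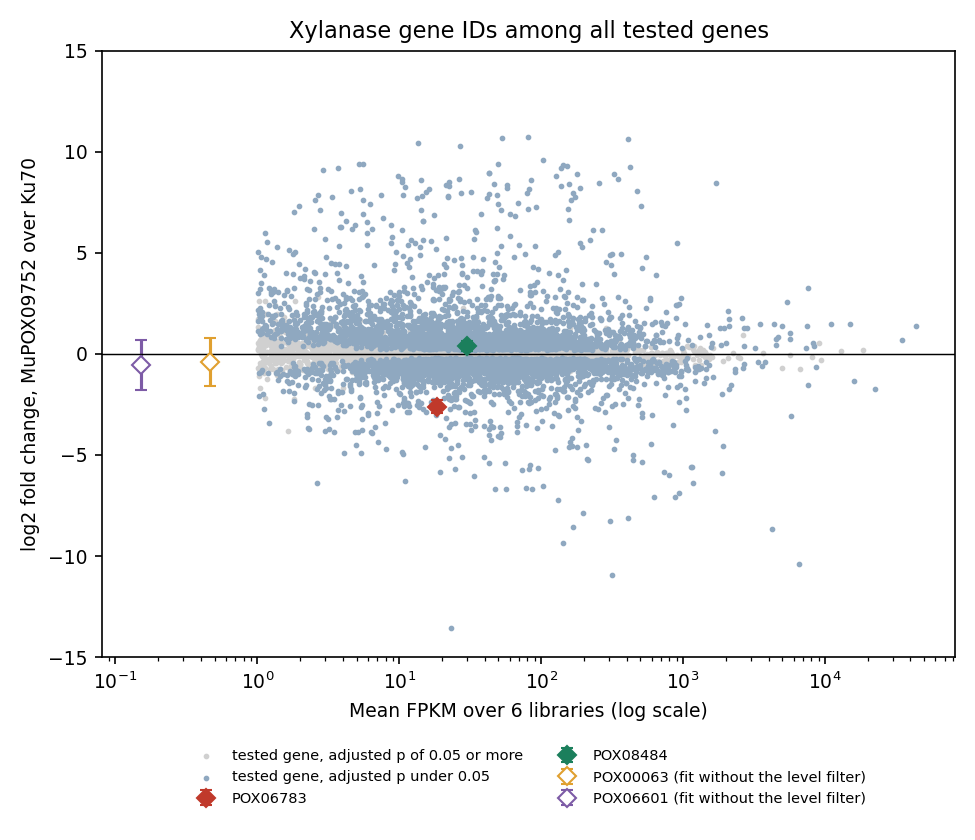
Log2 fold change of MuPOX09752 over Ku70 against the mean FPKM of 6 libraries (log scale) for 8807 tested genes, with the xylanase gene IDs as diamonds and their 95% intervals; open diamonds are from the fit without the level filter. POX06783 sits at -2.60 in the lower fringe of the genes, POX08484 at 0.39 within the bulk of called genes, and the intervals of POX00063 and POX06601 span 0.

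The opposite changes turned round the order of the expressed members. In Ku70, POX06783 was the higher of them in every library, at 1.21, 1.26 and 1.19 times the FPKM of POX08484. In MuPOX09752 it stood at 0.133, 0.132 and 0.203 times the FPKM of POX08484. This ratio is taken within a library and so does not depend on how libraries are scaled to each other. On the log2 scale it averaged -2.71 ± 0.36 in MuPOX09752 and 0.29 ± 0.04 in Ku70 (SD, n = 3 each), a difference of -3.00 or 8.0-fold (exact two-sided permutation test, p = 0.1, the smallest possible). Replicate 3 of MuPOX09752 had both the highest POX06783 and the lowest POX08484 level of its group, and it was also in the pairs of libraries with the lowest correlations within a strain. Without it the difference in the log2 ratio was -3.21.

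The summed level of the 4 IDs was 42.14, 41.18 and 37.5 FPKM in the MuPOX09752 libraries, against 58.78, 60.38 and 54.41 FPKM in the Ku70 libraries. The groups did not overlap, which was also true of the FPKM values of 67.7% of single tested genes. The sum was 1.44-fold lower in MuPOX09752, a log2 difference of -0.52 (exact two-sided permutation test, p = 0.1). Of this sum POX08484 made up 85.5% ± 3.44 in MuPOX09752 and 44.5% ± 0.51 in Ku70 (SD, n = 3 each). The share of POX06783 was 13.3% ± 2.89 in MuPOX09752 and 54.3% ± 0.95 in Ku70 (SD, n = 3 each). POX00063 made up at most 1.73% of the sum in any library and POX06601 at most 0.496%.

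**Figure D3:**
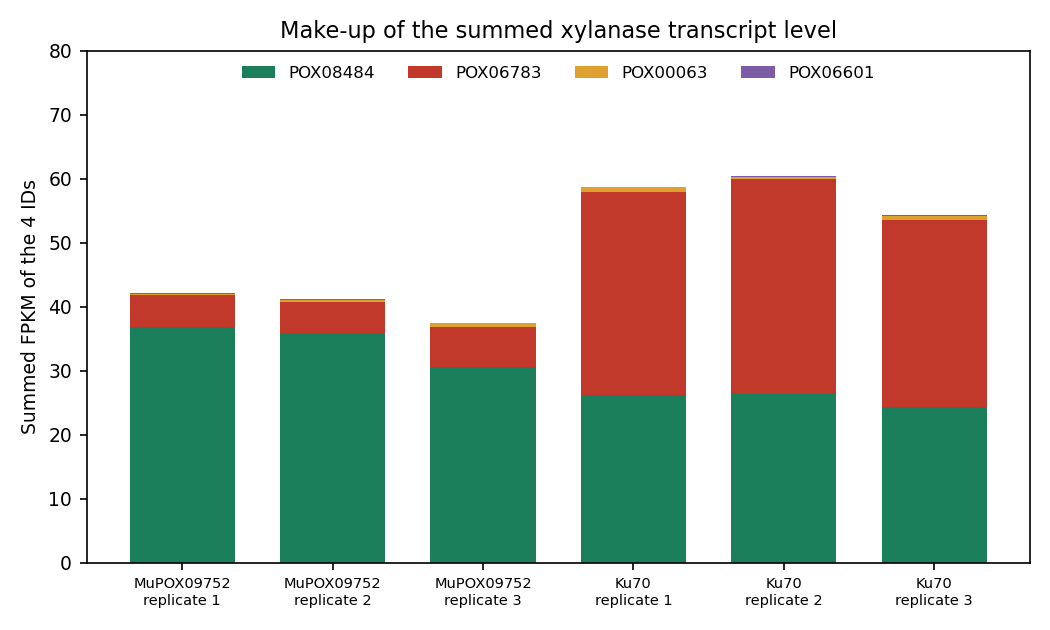
Summed FPKM of the 4 xylanase gene IDs in each library, stacked by gene, with the 3 MuPOX09752 libraries left of the 3 Ku70 libraries. The sum was 37.5 to 42.14 FPKM in MuPOX09752, of which POX08484 made up 81.5% to 87.6%, and 54.41 to 60.38 FPKM in Ku70, shared between POX06783 and POX08484.

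By rank among the 9834 IDs, with 1 the highest FPKM, POX06783 stood at 7532 to 7809 in the MuPOX09752 libraries and at 4003 to 4298 in the Ku70 libraries. POX08484 stood at 3741 to 4307 in the MuPOX09752 libraries and at 4517 to 4765 in the Ku70 libraries. The median ID had 24.3 FPKM in MuPOX09752 and 23.2 FPKM in Ku70, so POX08484 was above the median in both strains, and POX06783 was below it in MuPOX09752 and above it in Ku70. POX00063 ranked 9025 to 9357 in MuPOX09752 and 8700 to 9034 in Ku70, and POX06601 ranked 9403 to 9488 in MuPOX09752 and 9055 to 9226 in Ku70. The lower ranks of these near-silent genes in MuPOX09752 go with a count over all IDs: 982 IDs had a mean under 1 FPKM in MuPOX09752 and 1295 in Ku70. In both strains POX00063 lay above POX06601 in FPKM in every library, but their counts were few. The 95% exact Poisson intervals on the counts overlapped in each library, from 0.619 to 8.77 for the 3 counts of both in MuPOX09752 replicate 1. Such overlap takes no account of gene length and does not test the order. The summed counts were 20 for POX00063 and 8 for POX06601 in MuPOX09752, and 27 and 12 in Ku70.

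**Figure D4:**
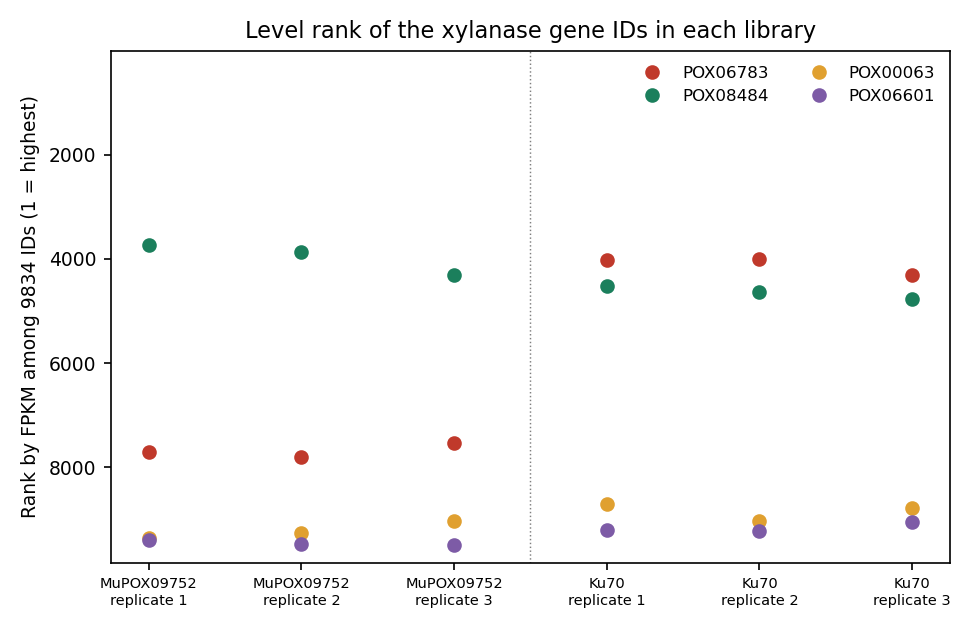
Rank by FPKM of each xylanase gene ID in each library, with rank 1 at the top and the 3 MuPOX09752 libraries left of the 3 Ku70 libraries. POX06783 stood at 7532 to 7809 in MuPOX09752 and at 4003 to 4298 in Ku70, while POX08484 kept to ranks between 3741 and 4765.

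The spread between libraries of a strain was near that of counting for most of these values. For POX06783 the coefficient of variation of FPKM was 15.2% in MuPOX09752 and 6.89% in Ku70, where counting error alone would give 12.8% in MuPOX09752 and 5.15% in Ku70. For POX08484 it was 9.94% in MuPOX09752, above the 4.83% from counting, and 4.38% in Ku70, below the 5.49% from counting. The deposited counts of the 4 IDs were exactly whole numbers in all 6 libraries, as were those of most genes: 2.76% to 3.24% of all IDs in a library had a count that was not whole. The lengths by which the authors scaled them, computed from counts, FPKM and library totals, were 868 bases for POX06783 and 934 for POX08484, and 1245 for POX00063 and 1613 for POX06601, where low counts and rounded FPKM make the values less precise.

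Other genes followed the expressed members closely over the 6 libraries. Likeness was measured as the root mean square difference between the deviations of log2(FPKM + 1) from each gene's own mean, over 7765 candidate genes averaging 5 FPKM or more. For POX06783 the nearest were POX02996, at a difference of 0.0541, and POX08447, at 0.0881, where the median candidate was at 1.2. POX02996 had 3.89 ± 0.79 FPKM in MuPOX09752 and 25.6 ± 1.54 FPKM in Ku70, and POX08447 had 7.50 ± 0.72 FPKM in MuPOX09752 and 45.4 ± 1.2 FPKM in Ku70 (SD, n = 3 each). Only 4 candidates lay within 0.1 of POX06783. The measure is not scaled to the size of a gene's change, so few genes lie near one with a large change. POX02996 met the limit of 5 FPKM only through its Ku70 level. For POX08484 the nearest were POX02314, at 0.0344, and POX06310, at 0.0345, but 275 candidates lay within 0.1, so its pattern was a common one. What these IDs encode is not given in the tables used here.

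No tested ID with a number near that of POX06783 fell as far. Only 1.81% of all tested genes were called with a fall that large, so finding none among so few IDs says little. Of the 10 IDs around POX06783, 8 were tested, of which 3 were lower, 0 higher and 5 not called, with log2 fold changes between -0.76 and 0.19 (edgeR, adjusted p under 0.05). The ID directly before POX06783 was not among the tested ones. Around POX08484 all 10 were tested, and 4 were higher, 1 lower and 5 not called, with log2 fold changes from -2.36 to 2.44. Around the near-silent members, 9 IDs were tested each: 2 higher and 3 lower around POX00063, and 7 higher and 2 lower around POX06601. Over all tested genes 60.1% were called, 29.8% as higher and 30.2% as lower, and whether any group of neighbours differs from this was not tested. Whether neighbouring numbers mean neighbouring genes was not checked.

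Cellulases cut cellulose, the main component of Avicel, and are secreted together with xylanases. Of 11 other IDs recalled as cellulase genes, 9 were tested, and 6 were higher and 1 lower in MuPOX09752 (edgeR, adjusted p under 0.05; 29.8% and 30.2% of all tested genes were). Which enzyme each of the 11 encodes was not checked, so they may not all cut cellulose itself. The median log2 fold change of the 9 tested IDs was 0.90, against 0.007 over all tested genes. The list was recalled with earlier results of these data known, so these counts and this median are descriptions and do not show enrichment. Of the 6 higher IDs, 1 reached the level filter only through MuPOX09752, at 2.06 ± 1.41 FPKM there and 0.36 ± 0.10 FPKM in Ku70 (SD, n = 3 each). The median includes that ID. The untested IDs averaged 0.53 and 0.75 FPKM in MuPOX09752, against 0.35 and 1.06 FPKM in Ku70. The edgeR fit without the level filter also gave 6 higher and 1 lower. In limma with quantile normalisation the 6 became 3. The place of the xylanase gene IDs among them differed between the strains. In MuPOX09752, POX06783 was exceeded in mean FPKM by 5 of the 11 and POX08484 by 1. In Ku70, POX06783 was exceeded by 0 of the 11 and POX08484 by 1. That 1 was POX06835, at 246.9 ± 23.4 FPKM in MuPOX09752 and 26.3 ± 0.73 FPKM in Ku70 (SD, n = 3 each), where it lay within the range of POX08484 and below POX06783. POX03641, the next highest of the list by mean FPKM, had 10.6 ± 1.45 FPKM in MuPOX09752 and 15.5 ± 0.92 FPKM in Ku70 (SD, n = 3 each), a fall of a smaller size than that of POX06783 (log2 fold change -0.59 ± 0.12, SE; edgeR, adjusted p = 0.00292).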

How the data were processed

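RNA was measured in 6 libraries, 3 of MuPOX09752 and 3 of Ku70, grouped by the strain in the labels. Per the labels' protocols, hyphae were kept at 28 °C and 180 rpm, and the growth text names the Ku70 mutant for all samples. Each deposited table gives, per the file headers, an expected count, which is an estimated count that is not normalized, and an FPKM value, scaled by the authors to gene length and library total. The submitters' processing notes list RSEM 1.2.12, Bowtie2 2.1.0, DESeq2 and BWA 0.7.10-r789 with no role for any of them. Genome build, annotation and strandedness: not given in the sources used here. None of the IDs matched the reference gene table of assembly ASM172317v3 (0 of 9834), so no positions or sequences are given.

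Expected counts were rounded to whole numbers and tested with edgeR 4.0.16 (quasi-likelihood test, TMM factors, R 4.3.3) on genes averaging 1 FPKM or more over the 6 libraries, with Benjamini-Hochberg adjustment over all of them at 0.05. The test was tested on simulated data. Each standard error was computed from the log2 fold change and its F statistic, and intervals use the fit's degrees of freedom. Exact permutation tests over libraries used SciPy 1.17.1. Alternatives used limma 3.58.1, DESeq2 1.42.0, other scalings and filters, a replicate block and leaving out each library. The depth was 13099454 to 14115694 counts per library, and intervals on counts cover counting error only.

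The members and lists were chosen with earlier results of these data known. The named genes were the members, POX09752, the 2 nearest in pattern to each expressed member, and the 2 recalled cellulase IDs with the highest mean FPKM.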

Additional observations from a re-analysis of the deposited data

How the results depend on the processing

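All 17 alternatives kept POX06783 lower and POX08484 higher in MuPOX09752 with adjusted p under 0.05, so 2 members were called in each. Among these, POX00063 and POX06601 entered only the edgeR fit without the level filter, so the count could not exceed 2 in the others. The log2 fold change of POX06783 ran from -2.72 without MuPOX09752 replicate 3 to -1.83 in limma with a pseudocount of 5 FPKM, which shrinks the fold changes of low genes by construction; with 1 library left out it ran from -2.72 to -2.52. For POX08484 it ran from 0.34 without MuPOX09752 replicate 1 to 0.48 without MuPOX09752 replicate 3, both also its range with 1 library left out. With 1 library left out, the log2 fold change ran from -0.95 to -0.07 for POX00063 and from -0.72 to -0.15 for POX06601. POX00063 was called lower in 1 of its 11 alternatives, limma on quantile-normalised log2(FPKM + 1) without the filter, chosen after seeing the data (log2 fold change -0.46, adjusted p = 0.0497; range over the alternatives 0.0497 to 0.917); the cause was not tested. POX06601 was called in 0 of 11, with adjusted p from 0.0515 to 0.879 (edgeR, DESeq2 and limma). The difference in the log2 ratio of POX06783 to POX08484 ran from -3.21 to -2.78, and that of the summed level from -0.57 to -0.47. Over all genes 4459 to 5819 were called, against 5290. Of the recalled cellulase IDs, 6 were higher, 5 to 6 with 1 library left out and 3 with quantile normalisation in limma; the cause was not tested. Sample labels carry the letters F, S and T, which were not used as pairs in the main fit. Same-letter deviations from the strain means had correlations of -0.0173, 0.156 and 0.075. Those of unlike letters ran from -0.129 to 0.0632. With the letter as a replicate block the log2 fold changes were -2.60 for POX06783 and 0.39 for POX08484, and no call changed. Depth limits POX00063 and POX06601, with at most 12 counts in a library.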
